A study of Mus musculus with 4 samples.

Results

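The 8 genes described here encode the MiT transcription factors (Tfe3, Tfeb and Mitf), the folliculin complex (Flcn, Fnip1 and Fnip2) and the tuberous sclerosis complex (Tsc1 and Tsc2). They were chosen by name, as known controllers of the exit from naive pluripotency, and not by a rule on their values. The choice was made with earlier results of these data known. All 8 were found, out of 20296 genes in the table. RNA had been sequenced from mouse embryonic stem cells in the naive state (nESC), held in 2i/LIF medium, in which a pair of kinase inhibitors and the cytokine LIF prevent differentiation, and from epiblast-like stem cells (EpiLSC), made from the same cells by 3 days on gelatin in N2B27 medium with activin A at 20 ng/ml and bFGF at 12 ng/ml. Each state had 2 samples, 1 of the line R1 and 1 of the line E14TG2a (E14), with no genetic change named in the labels. Because the medium changed with the state, effects of medium and state cannot be told apart, and with 1 sample of each line per state the error includes the difference between the lines.

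Tfe3, Tfeb and Mitf are closely related helix-loop-helix leucine zipper factors that switch on genes of lysosomes and autophagy, and Mitf is the master regulator of pigment cells. Their activity is set largely by where they sit in the cell: when mTORC1 is active at the lysosome it phosphorylates them and they are held in the cytoplasm. Folliculin, with its partners Fnip1 and Fnip2, acts on the Rag GTPases that bring mTORC1 and these factors together, and the Tsc1 and Tsc2 proteins restrain mTORC1 through the GTPase Rheb. In naive stem cells nuclear Tfe3 is known to sustain genes such as Esrrb, and loss of folliculin or of Tsc2 is known to keep cells naive. Such control acts on proteins, which RNA levels do not show.

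The values came from 1 comparison table, and levels of single samples were not analysed here. Its header does not name the direction, so positive log2 fold changes were taken as higher in EpiLSC from 6 known genes. In the authors' deposited table the naive genes Zfp42 (-6.22, SE 0.62), Klf4 (-6.29, SE 0.68) and Esrrb (-8.54, SE 0.69) were negative. The formative genes Fgf5 (8.40, SE 0.76), Otx2 (3.90, SE 0.66) and Dnmt3b (4.63, SE 0.63) were positive in the authors' deposited table. These 6 genes fit the labelled states under this reading and are no separate evidence for it. A gene was called risen or fallen when its adjusted p was under 0.05 (DESeq2 Wald test, Benjamini-Hochberg adjustment over 16361 genes). Levels per state, in normalized counts, follow from the mean over the 4 libraries and the fold change, so they have no SD. The total reads per sample are unknown, and the means in the table added up to 27888553.

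The 3 MiT genes parted. Mitf and Tfeb fell in EpiLSC, whereas Tfe3 did not pass the test and had nearly the same implied level in both states. None of the other 5 genes passed. Of the 8 genes 0 rose and 2 fell, beside 7.67% of all genes tested that rose and 6.23% that fell. Their median log2 fold change was -0.84, against 0.02 over all genes tested.

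Motifs near the transcription starts are shown first, because the MiT factors bind the E-box in genes of lysosomes and of the folliculin complex and a variant of it in pigment genes. RefSeq windows on GRCm38.p6, from 250 bases before to 50 after a start, were at hand for all 8 genes, 13 windows in all, of which Mitf and Tfeb had 3 each and Tfe3 had 2. They were searched on both strands for TCACGTG (the E-box with a flanking base), TCATGTG (its pigment gene variant) and TGACGTCA (the element bound by CREB and ATF factors). TCACGTGA reads as a match of the first on either strand, and none of the matches printed here is a match of 2 motifs. The E-box form was in 3.77% of all 32851 windows and, of the 13, in that of Fnip1 alone. The CREB type element was in 1.79% of all windows and in 2 of the 13, those of Flcn and of the third start of Mitf. TCATGTG was in 3.77% of all windows and in none of the 13. Each stretch below ends at or before its start, is read 5′ to 3′ on the gene's own strand and has the match in capitals; the last 3 genes are targets whose values follow.
Fnip1 (chr11:54438064-54438150, + strand): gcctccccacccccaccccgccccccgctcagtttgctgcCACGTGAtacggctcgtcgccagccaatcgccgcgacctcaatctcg
Flcn (chr11:59810041-59810128, - strand): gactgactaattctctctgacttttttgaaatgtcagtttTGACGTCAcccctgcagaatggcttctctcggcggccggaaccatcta
Mitf (chr6:97991590-97991677, + strand): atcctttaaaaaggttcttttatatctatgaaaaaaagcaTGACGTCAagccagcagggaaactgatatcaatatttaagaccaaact
Trpm1 (chr7:64153653-64153739, + strand): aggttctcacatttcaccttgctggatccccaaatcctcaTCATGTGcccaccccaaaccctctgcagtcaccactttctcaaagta
Glb1 (chr9:114400989-114401075, + strand): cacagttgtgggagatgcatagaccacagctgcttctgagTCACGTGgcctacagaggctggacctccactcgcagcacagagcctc
Ctsa (chr2:164833720-164833772, + strand): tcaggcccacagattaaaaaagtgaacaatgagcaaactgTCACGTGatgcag
These matches describe the letters in the windows and were not tested for binding. The files used mm9, so these coordinates belong to the RefSeq table only.

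Mitf (ENSMUSG00000035158.14, chromosome 6) fell 52.1-fold in EpiLSC, with a 95% interval from 19.7-fold to 138-fold. On the log2 scale this was -5.70 (SE 0.72; adjusted p 3.48e-13, DESeq2 Wald test) at a mean normalized count of 1962 in the authors' deposited table. The implied level was 3850 normalized counts in nESC and 73.9 in EpiLSC, so the gene was abundant in naive cells. Of all genes tested 80.9% had a lower mean and 1.60% a lower fold change. By p it stood at place 57 of the 1019 genes that fell, and by fold at place 29 of the 198 fallen genes whose mean was at least 1000. The size of the fall was near that of Zfp42 and Klf4, naive genes given above.

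Tfeb (ENSMUSG00000023990.17, chromosome 17) fell 16.1-fold, but its size was known less well, with a 95% interval from 3.47-fold to 75.2-fold. Its log2 fold change was -4.01 (SE 1.13, adjusted p 0.00465, DESeq2 Wald test) at a mean of 216 in the authors' deposited table. The implied level was 407 normalized counts in nESC and 25.2 in EpiLSC. The standard error was larger than that of 93.8% of the 500 tested genes nearest in mean, whose median was 0.76. When the test asked for more than a 2-fold change, Tfeb lost its call (adjusted p 0.097, Wald test with Benjamini-Hochberg adjustment; range 0.0046 to 1 over its alternatives), and it also lost it with Holm adjustment (adjusted p 1, Wald test). Mitf kept its call in both (adjusted p 9.0e-09 and 2.84e-11 by the same tests). Of the 8 genes 1 was then called in each, beside 6.91% of all genes tested past a 2-fold change and 4.38% with Holm adjustment.

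Tfe3 (ENSMUSG00000000134.16, chromosome X) had a log2 change of 0.11 (SE 0.68; adjusted p 0.984, DESeq2 Wald test) at a mean of 1307 in the authors' deposited table. The implied level was 1256 normalized counts in nESC and 1358 in EpiLSC. The 95% interval of its log2 fold change ran from -1.22 to 1.44, so a change of 2-fold in either direction lay inside it. That interval did not overlap those of Mitf (-7.11 to -4.30) or Tfeb (-6.23 to -1.79). The difference between the fold changes of these genes was not tested.

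**Figure D1:**
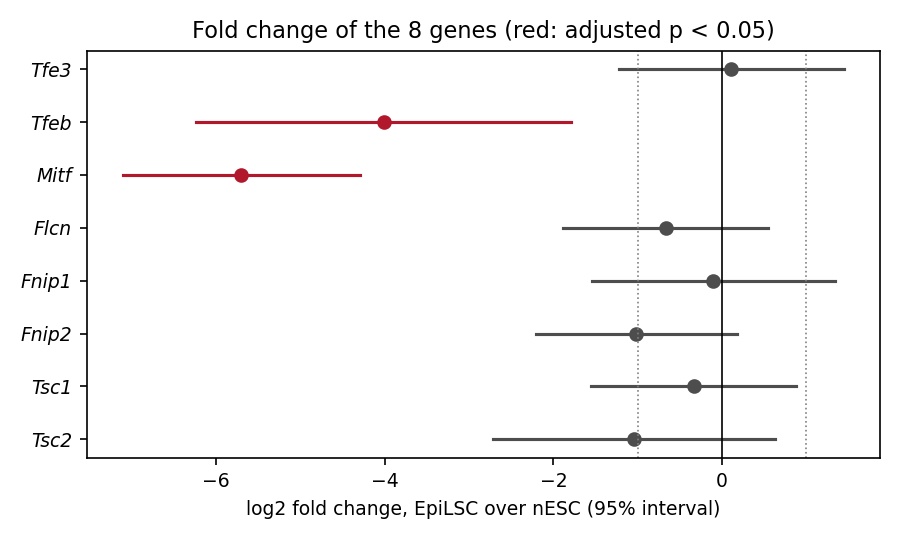
Log2 fold change of EpiLSC over nESC (x axis) for each of the 8 genes, with points for the values of the authors' deposited table and bars for 95% intervals computed from its standard errors; dotted lines mark a 2-fold change and red marks an adjusted p under 0.05. The bars of Mitf and Tfeb lie wholly below 0, and those of the other 6 genes cross it.

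Per kb of exon, Mitf and Tfe3 changed places between the states, and Tfeb was the lowest of the 3 in both. In nESC the implied level per kb was 621 normalized counts for Mitf, 136 for Tfe3 and 71.9 for Tfeb. In EpiLSC it was 147 for Tfe3, 11.9 for Mitf and 4.45 for Tfeb. Mitf thus made up 75.0% of the summed per-kb level of the 3 genes in nESC and 7.32% in EpiLSC, while the share of Tfe3 went from 16.4% to 90.0%. The share of Tfeb was 8.67% in nESC and 2.73% in EpiLSC. With lengths of the longest transcript in place of merged exons, the share of Mitf was 67.9% in nESC and that of Tfe3 was 89.2% in EpiLSC. The share of Tfeb depended more on the length used: it was 15.0% in nESC and 4.48% in EpiLSC per kb of longest transcript, and 7.39% and 1.73% with no length correction. The summed per-kb level of the family was 829 normalized counts in nESC and 163 in EpiLSC. The shares carry no error of their own. Tfec, the other gene of the family, had a mean of only 0.88 in the authors' deposited table and no adjusted p.

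**Figure D2:**
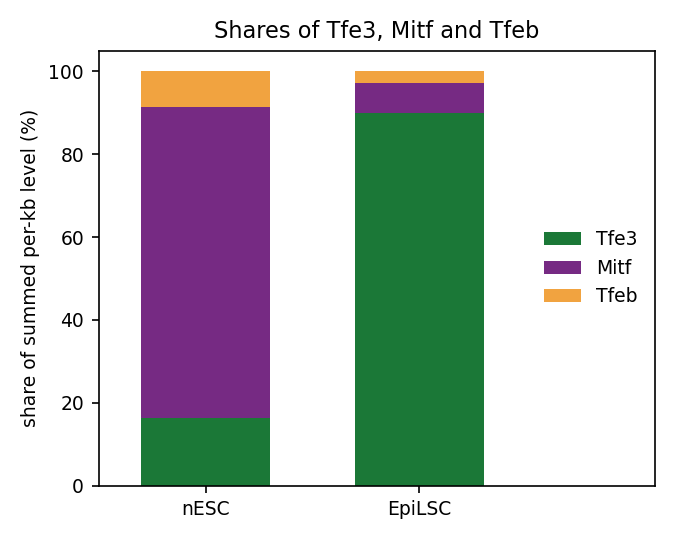
Share of each gene in the summed implied level per kb of merged exon of Tfe3, Mitf and Tfeb (y axis, percent) in nESC and EpiLSC; there are no error bars because the shares come from pooled values. Mitf holds 75.0% in nESC, and Tfe3 holds 90.0% in EpiLSC.

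The folliculin complex did not pass the test at any of its 3 genes. Flcn (ENSMUSG00000032633.11, chromosome 11), the GTPase-activating subunit, had a log2 change of -0.67 (SE 0.62; adjusted p 0.694, DESeq2 Wald test) in the authors' deposited table. It stood at an implied 946 normalized counts in nESC and 595 in EpiLSC. The partner gene Fnip1 (ENSMUSG00000035992.14, chromosome 11) was the most abundant of the 8, with a mean of 5154 and a log2 change of -0.10 (SE 0.74, adjusted p 0.984, DESeq2 Wald test) in the authors' deposited table. Its implied levels were 5337 in nESC and 4970 in EpiLSC. The other partner, Fnip2 (ENSMUSG00000061175.10, chromosome 3), had the smallest p of the 6 genes that were not called. Its log2 fold change was -1.01 (SE 0.61, unadjusted p 0.0956, adjusted p 0.364, DESeq2 Wald test) in the authors' deposited table. Its level was 5149 in nESC and 2549 in EpiLSC. The 95% interval of Fnip2 ran from -2.21 to 0.18 on the log2 scale, that of Flcn from -1.89 to 0.55 and that of Fnip1 from -1.54 to 1.34.

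The genes of the tuberous sclerosis complex did not pass either. Tsc1 (ENSMUSG00000026812.15, chromosome 2), which encodes hamartin, the stabilizing partner, had a log2 change of -0.34 (SE 0.62; adjusted p 0.922, DESeq2 Wald test) in the authors' deposited table. Its implied levels were 1576 normalized counts in nESC and 1247 in EpiLSC, with a 95% interval of the log2 fold change from -1.56 to 0.88. Tsc2 (ENSMUSG00000002496.9, chromosome 17), which encodes tuberin, the part that acts on Rheb, had a log2 change of -1.05 (SE 0.85; adjusted p 0.608, DESeq2 Wald test) in the authors' deposited table. Its implied levels were 1918 in nESC and 928 in EpiLSC, and its interval ran from -2.72 to 0.62. The standard error of Tsc2 exceeded that of 92.2% of the 500 genes nearest in mean. In the GENCODE M21 annotation Tsc2 overlaps Pkd1 on the opposite strand, and the strand setting of the counting is not given in the sources used here; Pkd1 had a log2 fold change of 0.17 (SE 0.91) in the authors' deposited table. Tbc1d7, the third subunit, also did not pass (0.35, SE 0.78, adjusted p 0.944, DESeq2 Wald test) in the authors' deposited table.

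**Figure D3:**
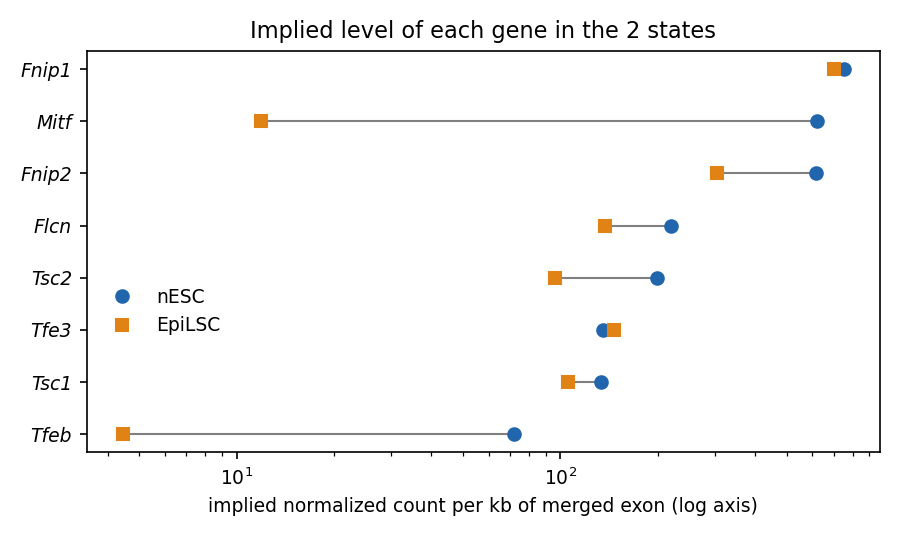
Implied level of each gene per kb of merged exon (x axis, normalized counts, log scale) in nESC (circles) and EpiLSC (squares); the levels come from pooled values and have no error bars. Mitf goes from 621 to 11.9 and Tfeb from 71.9 to 4.45, while Tfe3 stays between 136 and 147.

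Ranked per kb of merged exon, the order in nESC was Fnip1 (750 normalized counts), Mitf (621), Fnip2 (616), Flcn (219), Tsc2 (199), Tfe3 (136), Tsc1 (133) and Tfeb (71.9). Neighbours were set against a 95% margin that divides the variance of a gene's fold change equally between the states. Only the step from Fnip2 to Flcn, 1.49 on the log2 scale, was beyond its margin of 1.21. In EpiLSC the order was Fnip1 (698), Fnip2 (305), Tfe3 (147), Flcn (138), Tsc1 (105), Tsc2 (96.5), Mitf (11.9) and Tfeb (4.45). There the only step beyond its margin was that from Tsc2 to Mitf, 3.02 against 1.54 on the log2 scale. The first place of Fnip1 and the last of Tfeb were the same in both states.

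**Figure D4:**
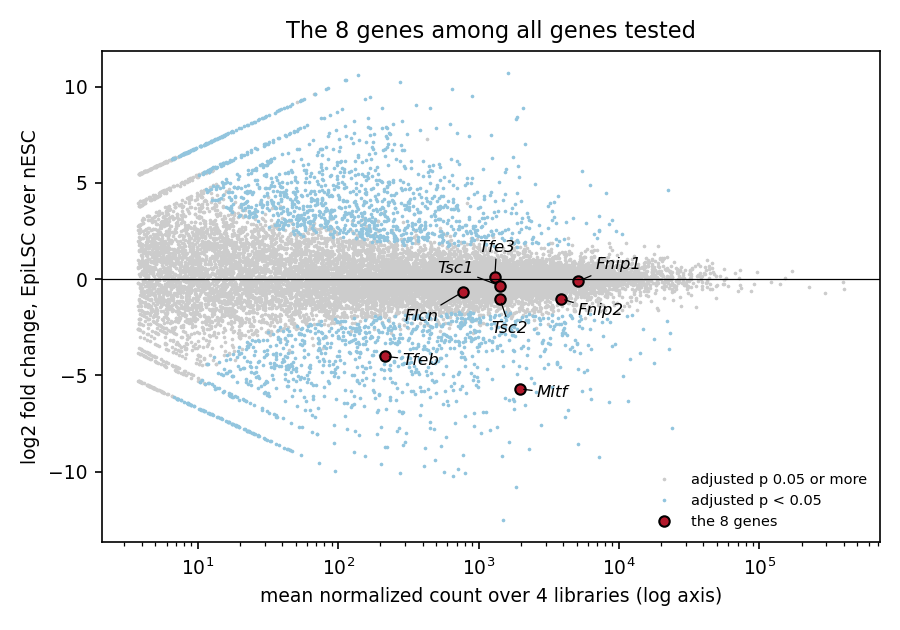
Log2 fold change of EpiLSC over nESC (y axis) against the mean normalized count over 4 libraries (x axis, log scale) for the 16361 genes tested in the authors' deposited table, with the 8 genes as large red points. Mitf lies low at a mean of 1962, with 1.60% of all genes tested below it. Tfeb lies low at a mean of 216, and the other 6 lie inside the cloud.

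Of 14 tested genes that act on MiT proteins (calcineurin subunits, 14-3-3 proteins and others) 1 rose and 0 fell, with a median log2 fold change of 0.20. Over all genes tested 7.67% rose and 6.23% fell, so the 1 rise is near that background, and the counts of the lists that follow are to be read beside the same shares. The riser was Ppp3cc, a calcineurin catalytic subunit, at a log2 change of 3.10 (SE 0.92; adjusted p 0.00817, DESeq2 Wald test) in the authors' deposited table. The implied level of Ppp3cc was 8.60 normalized counts in nESC and 73.7 in EpiLSC, while those of the other catalytic subunit genes were far higher: 1425 and 1402 for Ppp3ca, and 3548 and 5156 for Ppp3cb. Ppp3ca (-0.02, SE 0.66) and Ppp3cb (0.54, SE 0.69) missed the threshold in the authors' deposited table. Past a 2-fold change or with Holm adjustment, Ppp3cc lost its call, and its mean kept it out of the test of genes that reach a mean of 100.

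Among 27 genes of the Rag GTPases, Ragulator and amino acid sensing, 0 rose and 0 fell (median -0.04). An unadjusted p under 0.05 was found for 1 of them, Castor2, a paralog of the arginine sensor gene (1.90, SE 0.75, adjusted p 0.0707, DESeq2 Wald test), in the authors' deposited table. It was named after its value was seen. Of the 4 Rag genes, Rragd, itself a known MiT target, had 1.15 (SE 0.79) and Rragc -0.19 (SE 0.72) in the authors' deposited table, both not called.

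Of 20 genes of the mTOR complexes, Rheb and their outputs, 0 rose and 1 fell (median 0.04). It was Ulk1, the kinase that starts autophagy and is restrained by mTORC1, with -2.78 (SE 0.89, adjusted p 0.0169, DESeq2 Wald test) in the authors' deposited table. Mtor (-0.18, SE 0.77), Rptor (-0.42, SE 0.93) and Rheb (0.51, SE 0.67) missed the threshold in the authors' deposited table; these 3 and Rragc and Rragd were named for their place in the pathway.

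Upstream of the tuberous sclerosis complex, 2 of 24 genes of the PI3K, AKT and AMPK inputs rose and 0 fell (median 0.00). Irs1, an adaptor of the insulin and IGF receptors, rose 13.1-fold, at a log2 change of 3.72 (SE 0.68; adjusted p 1.90e-06, DESeq2 Wald test) in the authors' deposited table.

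Genes of the lysosome, the main known targets of the MiT factors, included 4 that fell and 0 that rose in EpiLSC among 33 tested, beside 6.23% of all genes tested that fell and 7.67% that rose. The other 29 were not called. Of the 33 log2 fold changes, called or not, 29 were below 0, against 49% of all genes tested. Their median was -0.85, against 0.02 over all genes tested. The summed implied level of the list was 97112 normalized counts in nESC and 50409 in EpiLSC. These values describe the list and were not tested as a set.

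Among those that fell were genes of lysosomal enzymes. Glb1, the lysosomal beta-galactosidase, fell 7.94-fold (-2.99, SE 0.62, adjusted p 4.04e-05, DESeq2 Wald test) in the authors' deposited table, from an implied 2275 normalized counts to 287. Ctsa and Ctsb, cathepsins, fell by log2 changes of -2.48 (SE 0.65) and -1.95 (SE 0.63) per the authors' deposited table, and were chosen after their values were seen. Glb1 kept its call under every alternative run, and Ctsa and Ctsb lost theirs against a 2-fold change and with Holm adjustment. The structural gene Lamp1 (-0.89, SE 0.67) and the channel gene Mcoln1 (-0.84, SE 0.68) missed the threshold in the authors' deposited table.

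The E-box form TCACGTG was in 13 of the 29 start windows found for 25 lysosome genes, against 3.77% of all windows, but the list was drawn from genes known as MiT targets, partly through this motif. The 13 genes with the motif had a median log2 fold change of -0.85 with 2 falls, Glb1 and Ctsa, whose windows are printed above. The 12 without it had a median of -0.95 with 0 falls. The 2 medians were close, and their difference was not tested.

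Autophagy genes had 0 rises and 2 falls among 25 (median -0.39), a share of falls near the 6.23% of all genes tested. Of the 25 log2 fold changes 19 were below 0, against 49% of all genes tested. The falls were those of Ulk1, given above, and Atg13, its partner in the starting complex, with -1.78 (SE 0.62, adjusted p 0.0325, DESeq2 Wald test) in the authors' deposited table. Both lost their calls against a 2-fold change and with Holm adjustment. The E-box form TCACGTG was in 5 of the 19 start windows found for autophagy genes, against 3.77% of all windows. Those windows belonged to Atg3, Atg7, Atg14, Nrbf2 and Vps33a, none of which was called. The windows of Ulk1 and Atg13 had no match of TCACGTG. The receptor gene Sqstm1, a well known MiT target, had -0.51 (SE 0.70) in the authors' deposited table and did not pass.

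**Figure D5:**
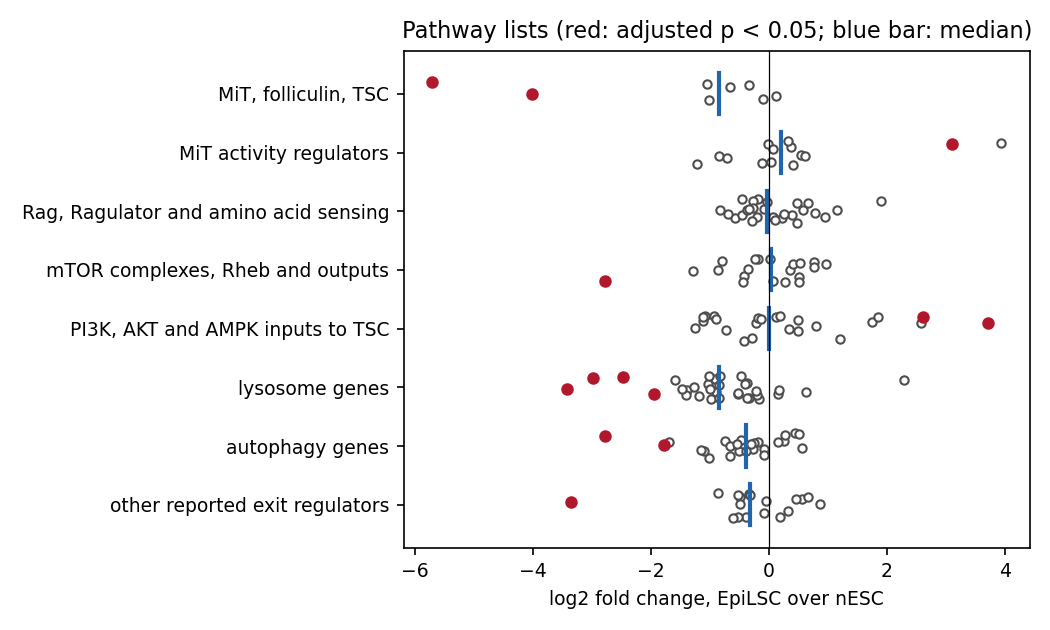
Log2 fold change of EpiLSC over nESC (x axis) for each tested gene of 8 lists (y axis), 1 point per gene at the value of the authors' deposited table, filled red where the adjusted p was under 0.05, with a blue bar at the median of each list; vertical jitter has no meaning. Mitf and Tfeb are the lowest points shown, and the lysosome list has a median of -0.85 with 4 red points, all below 0.

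Of 18 other genes reported to control the exit from the naive state 0 rose and 1 fell (median -0.32). It was Fgf4, the growth factor made by naive cells that drives their exit through ERK, with -3.35 (SE 0.68, adjusted p 2.28e-05, DESeq2 Wald test) in the authors' deposited table. The repressor gene Tcf7l1 (-0.04, SE 1.01) and the zinc finger gene Zfp281 (0.33, SE 0.71) missed the threshold in the authors' deposited table. Like Tfe3, Flcn and Tsc2, most of these controllers were not called at the RNA level, which does not show that they were unchanged.

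Pigment cell markers were examined beside Mitf, since they include its best known targets. Of 7 tested 0 rose and 4 fell, Trpm1, Kit, Pmel and Mlana. Trpm1, a cation channel gene whose first start window holds the pigment E-box variant printed above, had -10.79 (SE 0.98, adjusted p 5.27e-25, DESeq2 Wald test) in the authors' deposited table. Its implied level was 3669 normalized counts in nESC and 2.07 in EpiLSC, which rests on few reads, so the size of the fold is uncertain. Trpm1 was the only pigment cell marker whose windows were searched, so the other markers cannot be compared with it. The variant TCATGTG was also in 4 of the 29 lysosome start windows, against 3.77% of all windows, and in 0 of the 19 autophagy windows. Kit, a receptor kinase gene that is also active in stem and germ cells, fell 13.2-fold (-3.73, SE 0.70, adjusted p 3.12e-06, DESeq2 Wald test) in the authors' deposited table. Pmel (-3.05, SE 0.80) and Mlana (-6.07, SE 1.78), named because they complete the 4, fell in the authors' deposited table, Mlana at an implied 36.3 normalized counts in nESC and 0.54 in EpiLSC. Both lost their calls past a 2-fold change and with Holm adjustment.

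The genes that define pigment cells were at or near 0. The means were 1.90 for Tyr, 1.22 for Tyrp1, 1.70 for Oca2 and 2.62 for Sox10 in the authors' deposited table, all too low for an adjusted p, and Dct had no row. On these few reads their log2 fold changes were above 0 in the authors' deposited table, at 4.43 (SE 3.53) for Tyr, 3.80 (SE 4.12) for Tyrp1, 4.27 (SE 4.19) for Oca2 and 4.93 (SE 3.57) for Sox10. Of the 3 tested markers that were not called, Gpnmb had 1.55 (SE 0.93), Slc45a2 -5.51 (SE 2.59) and Mc1r -0.24 (SE 1.83) in the authors' deposited table. The summed implied level of the 11 markers in the table was 9462 normalized counts in nESC and 514 in EpiLSC, most of it Trpm1 and Kit. In bulk RNA, fewer cells of a type and less RNA per cell cannot be told apart. Of 7 tested fibroblast and feeder cell markers 3 rose and 1 fell. Mmp2 (4.05, SE 0.82), Thy1 (4.60, SE 0.97) and Dcn (6.76, SE 1.76) rose in the authors' deposited table, and Fn1 fell there (-3.64, SE 1.05). Fn1 lost its call past a 2-fold change and with Holm adjustment, and Dcn, which was outside the rule for named genes and chosen after its values were seen, with the latter. The collagen genes Col1a1, Col1a2 and Col3a1, which define these cells, had means of 6.07, 15.8 and 3.74 in the authors' deposited table. The summed implied level of the 10 fibroblast markers in the table was 42040 normalized counts in nESC and 3830 in EpiLSC, most of it Fn1. Any part of these cells in the results on the 8 genes was not tested.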

How the data were processed

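The 4 samples (2 nESC, 2 EpiLSC) gave strand-specific libraries of total RNA without ribosomal RNA, per the labels' protocols. The submitters' processing notes name TopHat2, HTSeq, DESeq2 1.8.2 and build mm9. Not given in the sources used here were the first 2 versions, the annotation, the strand setting and any shrinkage of fold changes. The 1 file is the authors' comparison table. Its mean normalized counts are a signal (counts over size factors, averaged over libraries by the authors), and its log2 fold changes, standard errors and Wald scores were deposited by the authors. The deposited p-value followed from fold change and standard error (largest gap 4.4e-15), and the deposited adjusted p from Benjamini-Hochberg adjustment over 16361 genes (largest gap 2.3e-15). The other 3935 genes, with means up to 3.74, were not counted as tested. Because p-values rest on 1 sample of each line per state, they do not measure the spread between repeat cultures.

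Symbols (20167 of 20296 IDs matched without version) and exon lengths came from GENCODE M21 (GRCm38). With mean m and log2 fold change L, the nESC level was 2m/(1 + 2^L) and the EpiLSC level the rest of 2m, which takes the libraries as equally weighted. Intervals are 95% normal intervals. The main calls are the deposited ones, and single genes were tested or adjusted anew only in the alternatives. Alternatives were a Wald test against a 2-fold change, no filter on the mean, a minimum mean of 100, Holm adjustment, and centring on genes whose mean reaches 1000. The calculations were tested on simulated data and run in Python 3.11.15 with scipy 1.17.1 and pandas 2.3.3.

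The members, the 7 pathway lists (161 genes), the 2 marker lists and the motifs were chosen with earlier results of these data known. Named were all 8 genes, the 6 state markers, and from each list the 2 called genes with the smallest p in each direction; others were named after their values were seen or for their place in the pathway. Some genes that the rule named are not reported here. No gene was named for a pattern like that of a member, since 1 contrast gives no profile.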

Additional observations from a re-analysis of the deposited data

How the results depend on the processing

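Of the 8 genes 2 were called in the deposited values, with no filter, at a minimum mean of 100 and after centring (which moved fold changes by 0.0039), and 1 (Mitf) against a 2-fold change and with Holm adjustment. The adjusted p of Tfeb was 0.097 against a 2-fold change and 1 with Holm adjustment. The 7 pathway lists, with 161 genes listed, together had 10 called genes (3 rose, 7 fell). They had 4 against a 2-fold change and 4 with Holm adjustment (1 rose and 3 fell in each). These counts are to be read beside the shares over all genes that follow. Of all 16361 genes tested 2274 (13.9%) were called, 1130 (6.91%) against a 2-fold change and 716 (4.38%) with Holm adjustment. At a minimum mean of 100, 1251 (11.7%) of 10713 genes were called. The stricter null and adjustment by construction call fewer genes. The place of Mitf in the order of levels in nESC was 2 per kb and 3 with no length correction; of the other places in both states 4 changed per kb of longest transcript and 7 with no length correction. Of the 9 counts per list 6 fell by over 1.5 times against a 2-fold change, 7 with Holm adjustment and 2 at a minimum mean of 100. No paired analysis was possible because the table has no values per sample, and for the same reason the fits that leave out a sample were not run. The smallest called log2 fold change was 1.68 in size, which limits what a missed call can show.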

Other observations

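Other helix-loop-helix factors that bind the E-box were listed after the table had been examined, to set beside the MiT genes. Of 12 such genes 1 rose and 0 fell, with a median log2 fold change of -0.06. Bhlhe41, a repressor of the circadian clock, rose 71.0-fold (6.15, SE 0.81, adjusted p 6.39e-12, DESeq2 Wald test) in the authors' deposited table, from an implied 7.62 normalized counts in nESC to 541 in EpiLSC. Its paralog Bhlhe40 was not called (0.97, SE 0.73) in the authors' deposited table. The clock activator genes Arntl (-1.77, SE 0.68, adjusted p 0.0641) and Clock (-1.73, SE 0.69, adjusted p 0.0813) did not pass by the DESeq2 Wald test of the authors' deposited table. Mlxipl, of the same list, also missed the threshold but with a positive value (2.43, SE 1.00, adjusted p 0.0903, DESeq2 Wald test) in the authors' deposited table. The widely expressed factors Usf1 (0.06, SE 0.89), Usf2 (-0.19, SE 0.75), Max (-0.37, SE 0.63) and Mlx (-0.50, SE 0.64) missed the threshold in the authors' deposited table.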
